A study of Mus musculus with 106 samples.

Results

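The 10 genes described here serve the uptake of lipid into macrophages, its storage or its efflux: Abca1, Abcg1, Apoe, Scarb1, Cd36, Msr1, Olr1, Lpl, Slc27a1 and Soat1. They were listed by name for their part in foam cell formation, by a rule that uses no measured value but was set with earlier results of these data known, and all 10 were found among the 21938 protein-coding genes read. A macrophage in an arterial plaque takes up modified lipoproteins through scavenger receptors, stores the cholesterol as esters in droplets and passes it out to lipid-poor particles through ATP-binding cassette transporters. When uptake and storage outrun efflux, the cell fills with droplets and is called a foam cell. Lipid-sensing nuclear receptors, among them LXR and PPARγ, are known to switch several of these genes.

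Chromatin immunoprecipitation followed by sequencing (ChIP-seq) gave genome-wide lists of intervals carrying H3K27ac, an acetylation found at promoters and enhancers in use, or H3K4me3, a methylation found at promoters in use. Wild-type C57BL/6J mice, 12 to 14 weeks old, served as controls or were made diabetic by injecting streptozotocin, a toxin of the insulin-secreting beta cell, at 42 to 45 mg/kg per day on 5 consecutive days, and diabetic tissue was taken 6 weeks later from animals above 13.9 mmol/L blood glucose. From each kind of mouse came hematopoietic stem cells (HSC), here bone marrow from which cells bearing CD3, CD4, B220, Ter119 or Gr1 had been removed with magnetic beads, so an enriched and not a pure population. The same marrow source gave bone marrow-derived macrophages (BMDM), grown for 7 days in L929-conditioned medium at 5 mmol/L glucose for control and diabetic cells alike, then left unstimulated or given 100 ng/mL LPS (lipopolysaccharide) with 10 ng/mL IFN-γ (interferon gamma) for 16 h. Each mark had 6 libraries per group, except 5 of unstimulated diabetic BMDM, which lack replicate 3, giving 35 libraries per mark and 70 lists in all.

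Read depth is unknown, since the lists hold no read totals, and they ran from 13730 to 277213 peaks (median 110154.5). Levels were therefore compared by rank within a library. A promoter reached 1 kb either side of any annotated start of the gene, and its score ran from 100 for the strongest promoter of the library down to 0 for one outside the 12464 (H3K27ac) or 8946 (H3K4me3) strongest, the smallest number of marked promoters in any library of that mark. A score is thus a position among promoters, not an amount of mark. The H3K4me3 cut came from 1 short list, diabetic HSC replicate 6 (13730 peaks), and the next lowest library had 13186 marked promoters. A score of 0 therefore does not mean that no peak was there. Apoe, for example, had an H3K4me3 promoter peak in 35 libraries and scored above 0 in 20. Differences in mean score were tested with limma over all promoters scored in at least 5 libraries, with Benjamini-Hochberg adjustment, and a call needed an adjusted p under 0.05. Where groups are said not to overlap, the share of all promoters or regions for which that holds is not given.

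Some libraries stood apart from their labels or from the rest. Among 131 H3K27ac regions that every stimulated and no unstimulated diabetic BMDM library held, control LPS+IFN-γ replicate 5 held 20 and the unstimulated control replicates 5 and 6 held 85 and 86. The other control libraries held 92 to 127 when stimulated and 18 to 55 when not, so these 3 libraries went against their labels. For H3K4me3, the fold and −log10 p of a peak gave a whole-number pileup (within 0.005) in 97.9% or more of the sampled peaks of 31 libraries, and in 4.13% to 10.2% in control LPS+IFN-γ 6, diabetic LPS+IFN-γ 1 and 2 and unstimulated control 6. Results are given below without these 3 or 4 libraries where that matters.

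The labelled cell types were checked against markers chosen by name. The summed H3K27ac score of 8 macrophage markers was 0 to 39.15 in HSC (median 11.23), 119.32 to 356.14 in unstimulated BMDM and 123.91 to 324.35 in stimulated BMDM. The sum of 8 stem and progenitor markers was 105.11 to 208.89 in HSC and 31.27 to 127.01 in unstimulated BMDM. Within that list Meis1 and Cd48 had the higher median in unstimulated BMDM (24.84 and 21.70, against 17.83 and 17.28 in HSC). Among defining macrophage markers Adgre1, Fcgr1 and C1qa stood at 0 in every HSC library, and Itgam stood at 0 in every stimulated BMDM library. In unstimulated BMDM C1qa scored above 0 in 10 of 11 libraries. Adgre1 and Fcgr1 did so in only 2 of 11 each and Itgam in 1 of 11, so they hardly separated the cells. Erythroid and megakaryocyte markers held 98.94 to 239.75 in HSC against 72.87 to 137.18 in unstimulated BMDM. Within that list Pf4 had the higher median in unstimulated BMDM (8.07, against 0 in HSC). The H3K4me3 sums of that list went the other way, with medians of 49.92 in HSC and 97.71 in unstimulated BMDM. For H3K27ac, neutrophil markers reached at most 36.34 in HSC and 19.39 in unstimulated BMDM, and lymphoid markers 34.48 and 15.01. Dendritic markers held 22.25 to 71.73 and 11.05 to 42.76. The H3K27ac sums of 8 LPS+IFN-γ response markers overlapped, at 65.04 to 162.63 in unstimulated and 101.70 to 223.65 in stimulated BMDM. For H3K4me3 the stem and progenitor sums did not separate the cells (median 142.98 in HSC, 163.10 in unstimulated BMDM). The H3K4me3 macrophage sums overlapped, at 10.71 to 118.05 in HSC and 58.86 to 243.62 in unstimulated BMDM. Several of these sums differ between the cells compared below, and their part in the lipid genes' differences was not tested.

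The members fell apart at the first reading, by whether the promoter carried a mark at all. Abca1, Apoe, Scarb1, Soat1 and Slc27a1 had a promoter peak in 35 of 35 libraries for each mark. Abcg1 had one in 35 for H3K27ac and 34 for H3K4me3, and Lpl in 33 and 34. The remaining 3 genes, the scavenger receptors Cd36, Msr1 and Olr1, had an H3K27ac promoter peak in 1, 2 and 4 libraries and an H3K4me3 promoter peak in 0 of 35. None of those 7 peaks was among the 20000 strongest of its library. Across all 21938 genes, 47.04% had an H3K27ac promoter peak in every library and 22.60% in 4 or fewer, with 36.94% and 21.35% for H3K4me3, so both states are common ones.

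The windows just before the start held more CpG dinucleotides in Abca1 and Soat1, marked in every library, than in Cd36 and Olr1. Promoters rich in CpG dinucleotides are known to carry H3K4me3 in most cells, and CpG-poor ones mainly where the gene is in use. The 250 bases before an annotated RefSeq start are shown for 2 members marked in every library and 2 almost never marked, from GRCm38.p6, 5′ to 3′ on the gene's own strand, which is the minus strand for all 4, with CG dinucleotides in capitals. They lie at chr4:53159896-53160145 (Abca1), chr1:156474329-156474578 (Soat1), chr5:17835897-17836146 (Cd36) and chr6:129507166-129507415 (Olr1). The Cd36 window lies at the last of its 3 groups of starts, while its only promoter peak was at group 2.
Abca1: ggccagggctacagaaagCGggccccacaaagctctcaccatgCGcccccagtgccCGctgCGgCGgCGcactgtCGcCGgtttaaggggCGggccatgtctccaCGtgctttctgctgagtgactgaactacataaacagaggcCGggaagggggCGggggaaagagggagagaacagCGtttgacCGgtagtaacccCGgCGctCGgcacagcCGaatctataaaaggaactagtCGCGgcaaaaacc
Soat1: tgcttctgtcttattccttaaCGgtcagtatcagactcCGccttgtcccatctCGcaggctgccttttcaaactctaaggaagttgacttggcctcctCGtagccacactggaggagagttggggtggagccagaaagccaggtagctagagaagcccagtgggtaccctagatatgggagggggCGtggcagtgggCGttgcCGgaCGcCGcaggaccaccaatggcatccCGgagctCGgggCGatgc
Cd36: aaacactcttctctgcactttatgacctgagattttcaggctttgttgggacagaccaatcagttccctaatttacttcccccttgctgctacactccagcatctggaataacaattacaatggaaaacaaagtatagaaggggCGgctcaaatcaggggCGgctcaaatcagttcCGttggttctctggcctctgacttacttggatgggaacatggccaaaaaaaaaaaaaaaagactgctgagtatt
Olr1: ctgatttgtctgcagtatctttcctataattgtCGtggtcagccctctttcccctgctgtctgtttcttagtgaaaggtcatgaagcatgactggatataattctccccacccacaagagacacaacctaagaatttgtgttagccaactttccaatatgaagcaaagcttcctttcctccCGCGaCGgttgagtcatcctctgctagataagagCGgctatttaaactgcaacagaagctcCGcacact

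The Abca1 window held 20 CpG, more than 82.05% of 32851 upstream windows of the same length, and the Soat1 window held 12. The Olr1 window held 6, which is the median of all windows, and the Cd36 window held 3, with 29.03% of windows holding fewer. Counting the window richest in CpG of each of 16522 matched genes, the median was 20 for the 6281 genes with an H3K4me3 promoter peak in all 35 libraries and 1 for the 2522 genes with none, so Cd36 and Olr1 had more CpG than the usual unmarked gene. Slc27a1 had windows of 8, 12 and 10 CpG and Apoe of 8, 9 and 10. Of the matched members marked in every library, only Abca1 thus reached the median of 20. Short motifs were searched on both strands: AGGTCA, bound by nuclear receptors, in 14.02% of windows, the PU.1 core GAGGAAG, in 10.61%, and the AP-1 motif TGANTCA, in 6.75%. Cd36 held AGGTCA 1 time, Olr1 held AGGTCA and TGANTCA 1 time each, and the printed Abca1 and Soat1 windows held none of these letters. Promoter sequences of 6 of the 10 members were matched, and those of Abcg1, Lpl, Msr1 and Scarb1 were not.

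The first comparison asked how macrophages differ from the marrow cells they come from. At the promoter, H3K27ac was higher in unstimulated BMDM than in HSC of control mice for 6 of the 7 members tested, and in diabetic mice for 4 of 7, with none lower. Slc27a1, which imports fatty acids, had the largest mean difference in both kinds of mice. Next came Soat1, which esterifies cholesterol for storage, in control mice, and Lpl, the lipase that frees fatty acids from lipoprotein triglyceride, in diabetic mice. Over all promoters tested, 8.95% were called higher and 8.48% lower in control mice (17.4% in all), and 9.44% and 8.13% in diabetic mice (17.6% in all). The median difference of the 7 members was 25.22 score points in control and 21.96 in diabetic mice, against −0.49 and −0.52 over all genes. A change in the share of cells carrying the mark and a change in the mark per cell cannot be told apart in such samples.

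**Figure D1:**
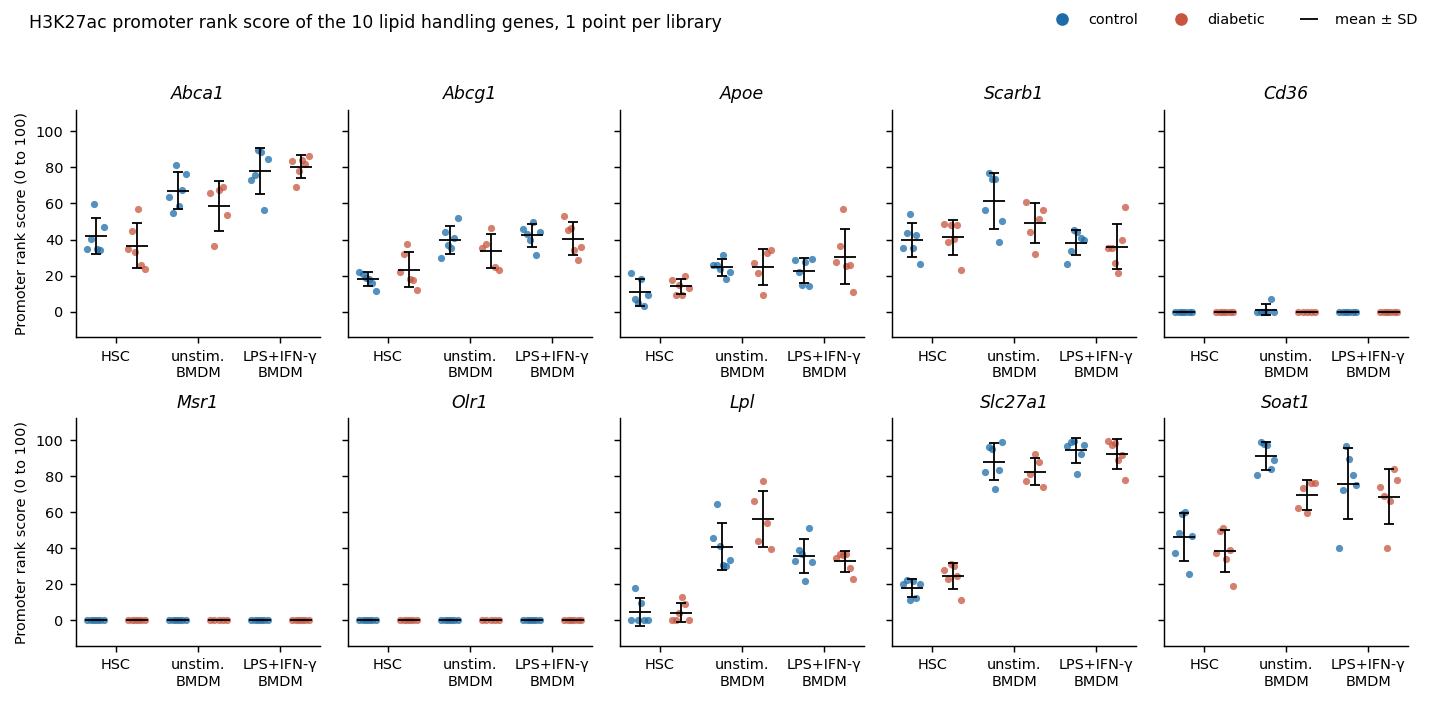
H3K27ac promoter rank score (0 to 100, no unit) of each of the 10 genes by cell state, 1 point per library, blue for control and red for diabetic mice, with mean ± SD. Slc27a1 sits between 11.32 and 31.04 in HSC and between 73.06 and 99.69 in BMDM, while Msr1 and Olr1 stay at 0 throughout.

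Among the genes of fatty acid handling and storage, Slc27a1 scored 11.40 to 22.38 in control HSC (median 19.94) and 73.06 to 98.69 in control unstimulated BMDM (median 89.32). In diabetic mice it scored 11.32 to 31.04 in HSC and 74.01, 77.44, 81.26, 87.66 and 92.05 in unstimulated BMDM. HSC and BMDM did not overlap in either kind of mouse, and in the 23 BMDM libraries the promoter ranked between position 39 and 3358 of all promoters (median 993). The difference was 70.03 ± 5.65 (SE) in control mice (limma, adjusted p = 1.87e-12) and 57.75 ± 5.93 in diabetic mice (adjusted p = 1.49e-09).

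The BMDM signal at Slc27a1 lay at another start site than the HSC signal. The gene has 7 annotated starts within chr8:71568882-71570655 and 2 more within chr8:71579213-71580516, inside the gene. The strongest H3K27ac promoter peak was at the first group of starts in 12 of 12 HSC libraries and in 0 of 23 BMDM libraries. At the first group alone the median rank was 9697.5 in HSC and 6492 in BMDM. At the later group it moved from 13908 (10 of 12 HSC libraries with a peak there) to 993 (23 of 23). The stretch over the later starts, chr8:71573522-71582570, had a region score of 0 in 10 of 12 HSC libraries and of 87.00 to 99.85 in the 23 BMDM libraries. Its difference was 86.00 in control mice (adjusted p = 8.95e-20) and 91.45 in diabetic mice (adjusted p = 8.4e-20). With scores above 0 in 2 HSC libraries, the region passed the filter of 5 scored libraries through BMDM, so its test adds nothing to those scores. For H3K4me3 the strongest peak stayed at the first group in 12 of 12 HSC and 20 of 23 BMDM libraries, with a peak at the later group in 6 of 12 and 23 of 23. Whether a transcript begins there was not measured.

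Soat1 scored 25.49 to 59.91 in control HSC (median 47.58) and 80.55 to 99.03 in control unstimulated BMDM (median 93.21). Diabetic HSC scored 19.06 to 51.14 and diabetic unstimulated BMDM 59.43, 62.14, 73.59, 76.16 and 76.36. Neither pair of groups overlapped. The difference was 45.06 ± 7.66 in control (adjusted p = 2.59e-05) and 31.11 ± 8.04 in diabetic mice (adjusted p = 0.0050, lost under 2 of 10 other settings, up to 0.2466). Within the Soat1 locus the promoter interval chr1:156473728-156474643 differed by 22.44 and 17.79 points (adjusted p = 0.000409 and 0.0089, the latter lost without HSC replicate 6, at 0.0583).

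Lpl was the gene most nearly unmarked in HSC among those with a BMDM promoter mark. It scored 0 to 17.86 in control HSC (median 0) and 30.09 to 64.54 in control unstimulated BMDM (median 37.28). Diabetic HSC scored 0 to 12.77, and diabetic unstimulated BMDM 39.84, 44.11, 53.93, 66.07 and 77.31. No BMDM library came down to the highest HSC library. The differences were 36.33 ± 6.00 (adjusted p = 1.64e-05) and 51.91 ± 6.30 (adjusted p = 5.36e-08), and its promoter interval chr8:68879895-68882434 differed by 56.09 (adjusted p = 5.84e-07) and 59.00 (adjusted p = 8.51e-07). Lpl is also highly expressed by adipocytes, whose marker promoters summed to at most 17.04 in any HSC or BMDM library of this mark.

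Of the efflux genes, Abca1, which loads cholesterol onto apolipoprotein A-I, scored 34.46 to 59.46 in control HSC (median 37.38) and 54.61 to 81.35 in control unstimulated BMDM (median 65.49). Diabetic HSC scored 23.71 to 57.03 and diabetic unstimulated BMDM 36.33, 53.33, 65.94, 67.63 and 69.16. Both comparisons overlapped at their edges, and both were called, at 25.22 ± 6.85 (adjusted p = 0.0075) and 21.96 ± 7.19 (adjusted p = 0.0276). The call in diabetic mice was lost without HSC replicate 5 or 6, or unstimulated BMDM replicate 1, 4 or 5 (adjusted p up to 0.0780). It was also lost under 5 of 10 other settings (up to 0.3093), and the control call under 2 of 10 (up to 0.2854). Its promoter interval chr4:53158446-53160733 was already high in HSC, at 70.94 ± 5.71 (SD, n = 6) in control mice, and stood 12.55 points higher in BMDM (adjusted p = 0.0284). That call was lost without the 3 libraries that went against their labels (adjusted p = 0.0963), and without HSC replicate 1, 4 or 5 or unstimulated BMDM replicate 3 or 6 (up to 0.0787).

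Abcg1, which passes cholesterol to high-density lipoprotein, scored 11.23 to 21.81 in control HSC (median 18.63) and 29.50 to 51.90 in control unstimulated BMDM (median 38.71). These groups did not overlap, and the difference was 21.89 ± 5.44 (adjusted p = 0.0033, lost under 1 of 10 other settings, at 0.0680). In diabetic mice HSC reached 37.65 and BMDM came down to 23.27, and the difference of 10.20 ± 5.71 was not called (adjusted p = 0.231). The test of the difference between the diabetic and control effects gave −11.69 ± 7.89 (adjusted p = 1), so the effects in control and diabetic mice were not shown to differ. In an Abcg1 intron, chr17:31090010-31091838 was among the ranked regions in HSC libraries and in no BMDM library, with region scores of 2.44 to 52.89 in the 6 control HSC libraries, 0 to 62.46 in the diabetic ones and 0 in all 23 BMDM libraries. The fall was called in control mice (−25.63, adjusted p = 0.0147) and in diabetic mice (−22.84, adjusted p = 0.0424). The first call was lost without HSC replicate 1 or 5 (adjusted p up to 0.0610), and the second without HSC replicate 4, 5 or 6 or any 1 of the 5 BMDM libraries (up to 0.1797). The second was also lost without the 3 libraries that went against their labels (0.0526). This region passed the filter of 5 scored libraries through HSC alone, so its test adds nothing to the scores, and a score of 0 does not show that BMDM lacked the mark.

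Apoe, the secreted acceptor of effluxed cholesterol, was the weakest of the always-marked promoters. It scored 3.27 to 21.44 in control HSC (median 8.06) and 18.01 to 31.35 in control unstimulated BMDM (median 24.80), and the difference of 13.79 ± 5.37 was not called (adjusted p = 0.0690), nor was that of 10.82 ± 5.63 in diabetic mice (adjusted p = 0.191). The interval just upstream, chr7:19699992-19704102, was higher in BMDM by 34.70 in control mice (adjusted p = 0.0024) and by 25.60 in diabetic mice (adjusted p = 0.0387, lost without HSC replicate 1, 2, 5 or 6 or BMDM replicate 2 or 4). It also holds a start of Tomm40, the mitochondrial import gene next door, so it cannot be assigned to Apoe alone.

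The receptors split. Scarb1, the high-density lipoprotein receptor, was the 1 receptor of 4 with a marked promoter throughout. It scored 26.55 to 54.16 in control HSC (median 38.77) and 38.37 to 77.06 in control unstimulated BMDM (median 64.91), a difference of 21.96 ± 6.82 (adjusted p = 0.0199). In diabetic mice the difference was 7.93 ± 7.15 (adjusted p = 0.494). The control call was lost without HSC replicate 6 or unstimulated BMDM replicate 2, 3 or 4 (adjusted p up to 0.0622) and under 4 of 10 other settings (up to 0.122). Without the 3 libraries that went against their labels the difference was 30.57 (adjusted p = 0.0026). All 6 calls in control mice held without those 3 libraries.

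Cd36, Msr1 and Olr1 were read through their whole loci, since the promoters gave nothing to rank. Cd36, the fatty acid translocase and receptor for oxidized lipoprotein, had H3K27ac peaks somewhere in its 147 kb locus in all 35 libraries, with a median of 3 peaks in HSC and 8 in BMDM. Peaks among the 20000 strongest were present in 4 of 12 HSC and 12 of 23 BMDM libraries, and none of its 4 tested regions was called in any comparison. Msr1, the class A scavenger receptor, had no peak of either mark in any of 24 HSC libraries. In BMDM it had H3K27ac peaks in 17 of 23 libraries, at a median of 2, of which 1 library had a peak among its 20000 strongest. Olr1, the lectin-like receptor for oxidized lipoprotein, had H3K27ac peaks in 9 of 12 HSC and 18 of 23 BMDM libraries at a median of 1 in each. No peak for these genes at this depth does not show that the mark was absent.

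**Figure D2:**
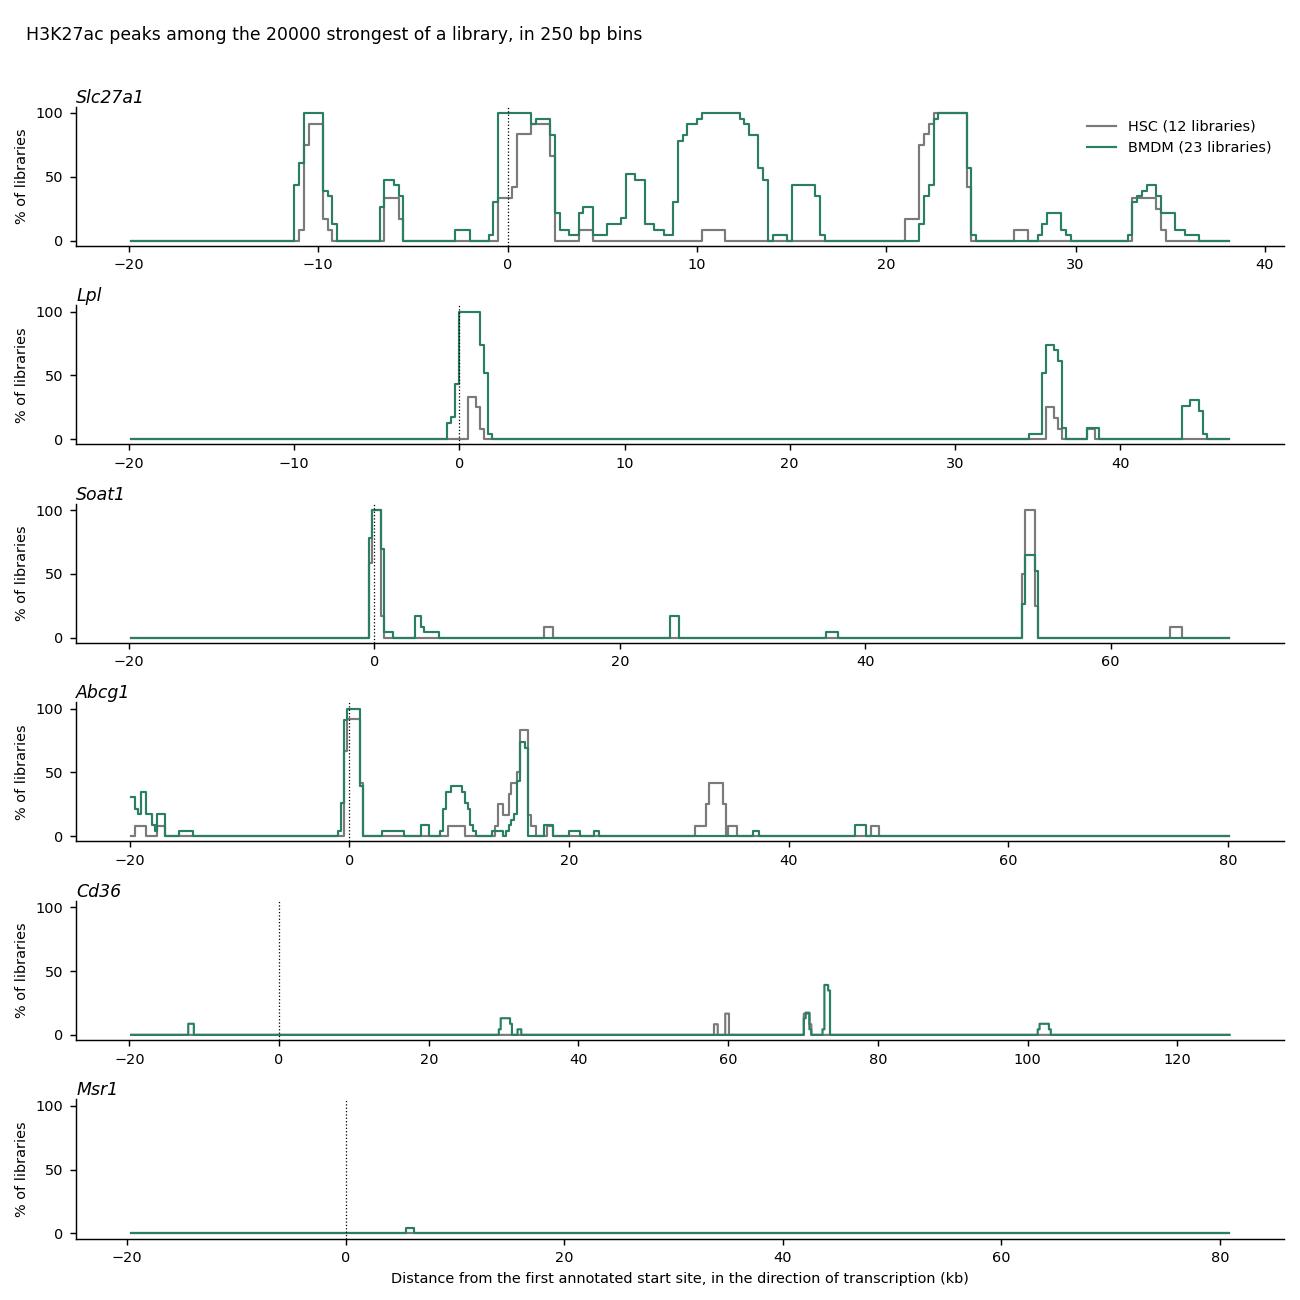
Share of libraries (%) with an H3K27ac peak among the 20000 strongest over each 250 bp bin of 6 loci, for 12 HSC (grey) and 23 BMDM libraries (green), against distance in kb from the first annotated start in the direction of transcription. Slc27a1 has a broad stretch around 10 kb past the first start in BMDM libraries that is nearly absent from the HSC profile, Abcg1 has an intronic stretch in the HSC profile that the BMDM profile lacks, and Cd36 and Msr1 are nearly empty at the start site.

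Over all members, 56 H3K27ac consensus regions were tested. In control mice 10 were higher in unstimulated BMDM than in HSC and 2 lower, against 7.92% higher and 10.6% lower over all 41688 regions (18.5% in all). In diabetic mice 8 were higher and 2 lower, against 8.38% and 9.45% (17.8% in all). The Abcg1 intron was 1 of the 2 lower regions in each kind of mouse.

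H3K4me3 spread more widely between libraries than H3K27ac. All 7 members tested had a positive BMDM minus HSC difference in control mice (median 27.75, against 0.08 over all genes), and 2 were called, Soat1 and Scarb1, against 0.657% of promoters called higher and 0.938% lower (1.59% in all). Soat1 scored 0 to 73.29 in control HSC (median 15.90) and 77.56 to 97.08 in control unstimulated BMDM (median 83.52). Scarb1 scored 0 to 51.64 (median 18.14) and 68.05 to 97.32 (median 78.86). Neither gene's groups overlapped. The differences were 61.91 ± 16.55 for Soat1 (adjusted p = 0.0348) and 59.27 ± 16.25 for Scarb1 (adjusted p = 0.0396).

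Both H3K4me3 calls were lost without the 4 libraries of unclear scaling, at adjusted p = 0.0617 for Soat1 and 0.0638 for Scarb1, although the differences stayed at 62.89 and 60.85. Each was also lost without control HSC replicate 2, 3 or 6 or unstimulated control replicate 1, 2, 5 or 6 (adjusted p up to 0.1041 and 0.1078). Other settings ended the Soat1 call in 4 of 10 cases and the Scarb1 call in 6 of 10. Slc27a1 scored 0 in 5 of 6 control HSC libraries and 9.45 to 89.86 in control unstimulated BMDM, a difference of 54.07 ± 16.35 that missed the threshold (adjusted p = 0.0543). Lpl scored 0 in 10 of 12 HSC libraries and Slc27a1 in 8 of 12, so both passed the filter on low scores through BMDM. In diabetic mice none of the 7 was called (0.024% of promoters were), with a median difference of 27.81. Of 16 H3K4me3 regions tested over the loci, 2 were higher in control BMDM, the promoter intervals of Scarb1 (chr5:125339033-125341860, 54.48, adjusted p = 0.0312) and Soat1 (chr1:156473749-156474592, 55.23, adjusted p = 0.0386), against 1.28% of all regions higher and 2.26% lower (3.54% in all). Both were lost without the same 4 libraries (adjusted p = 0.0582 and 0.0700) and without several single libraries (up to 0.0937 and 0.1083), among them control HSC replicates 3 and 6. None was called in diabetic mice, where 0.14% of all regions were.

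**Figure D3:**
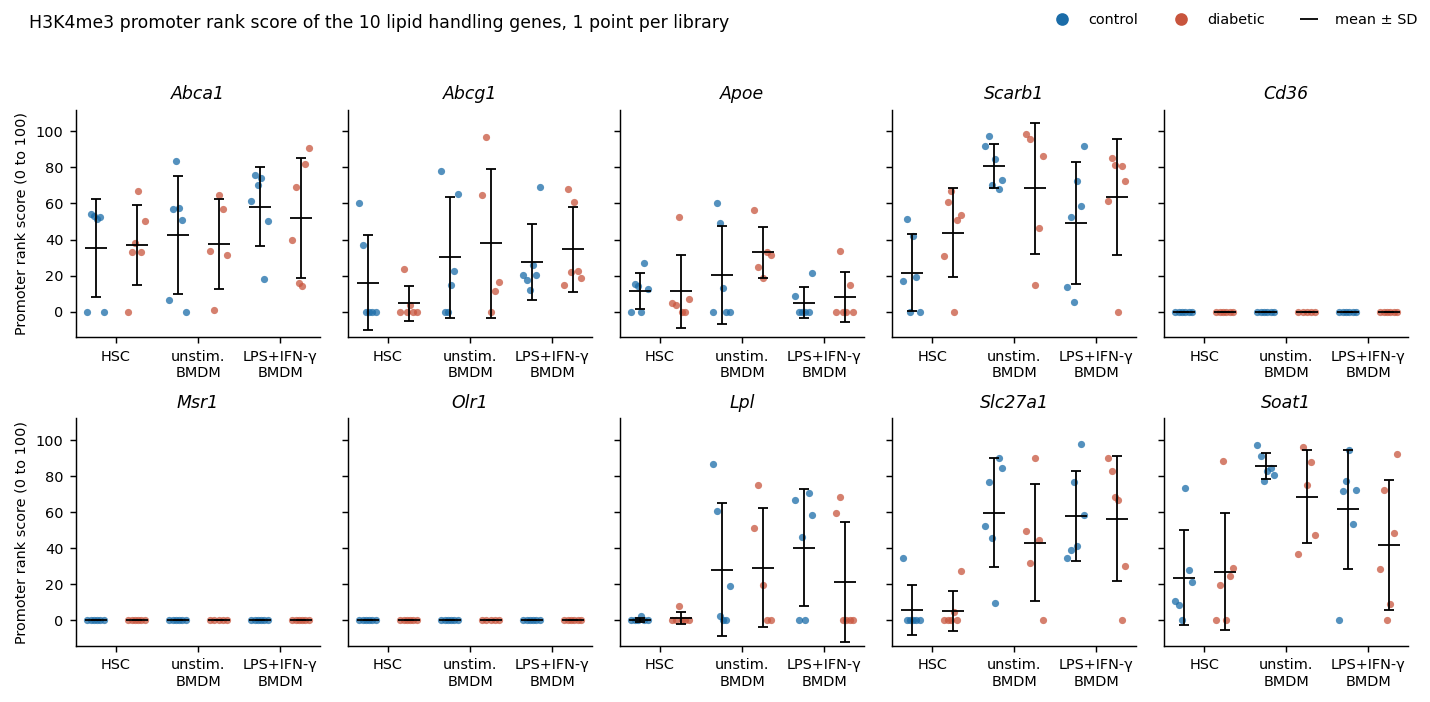
H3K4me3 promoter rank score (0 to 100, no unit) of each gene by cell state, 1 point per library, blue for control and red for diabetic mice, with mean ± SD. Soat1 and Scarb1 sit lowest in control HSC and highest in control unstimulated BMDM, and Cd36, Msr1 and Olr1 are at 0 in all 35 libraries.

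The second comparison was stimulation of BMDM with LPS+IFN-γ. In diabetic cells 1 member of 7 was called for H3K27ac, a fall at Lpl, against 1.33% of promoters called higher and 2.03% lower (3.36% in all). Lpl went from 39.84, 44.11, 53.93, 66.07 and 77.31 in the 5 unstimulated libraries to 22.76 to 37.01 (median 35.58) in the 6 stimulated ones. The groups did not overlap, and the difference was −23.42 ± 6.30 (adjusted p = 0.0290). The call was lost without stimulated replicate 3 or unstimulated replicate 1 or 4 (adjusted p up to 0.1074). It was also lost under 7 of 10 other settings, with an adjusted p from 0.0212 to 0.343 over the 10.

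In control cells Lpl differed by −5.20 ± 6.00 (adjusted p = 0.998), and the stimulation effects in diabetic and control cells were not shown to differ (−18.22 ± 8.70, adjusted p = 0.736). Abca1 rose by 21.99 ± 7.19 in diabetic cells without reaching the threshold (adjusted p = 0.0754), with 69.07 to 86.23 (median 82.70) after stimulation. In control cells no promoter was called at all for H3K27ac (0%, with 773 of 14411 at an unadjusted p under 0.05, limma). There Scarb1 scored 26.65 to 45.38 after stimulation (median 40.14) against 38.37 to 77.06 before, a difference of −23.19 ± 6.82 (adjusted p = 0.607). Without the 3 libraries that went against their labels this became −32.30, and it was then called (adjusted p = 0.0229). The 0% above is for all libraries, and the share of all promoters called without those 3 is not given here.

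Of 56 regions tested over the members, 1 was called after stimulation of diabetic cells, against 2.27% of regions higher and 2.06% lower (4.33% in all). That count is near the share of all regions, so it is not a result about the members. The called region lies 17926 bp before the first Abcg1 start, at chr17:31038367-31039749, and scored 0 in all 5 unstimulated diabetic libraries. After stimulation the 6 libraries scored 36.88, 47.24, 61.48, 29.35, 20.12 and 2.16, a difference of 32.87 ± 10.09 (adjusted p = 0.0441). The groups did not overlap, but in control mice 2 unstimulated libraries scored 40.28 and 58.95 and 3 stimulated libraries scored 0. The call was lost without stimulated replicate 1, 2 or 3 or any 1 of the 5 unstimulated libraries (adjusted p up to 0.150). In control cells none of the members' regions was called, as were 0.0048% of all regions. No H3K4me3 promoter or region was called in either kind of mouse (0% each, with 562 and 936 of 12478 promoters at an unadjusted p under 0.05, limma).

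The third comparison set diabetic against control cells. No member's promoter was called for either mark in HSC, in unstimulated BMDM or in stimulated BMDM. Over all promoters the share called was 0% for H3K27ac in HSC and stimulated BMDM, 0.0139% in unstimulated BMDM and 0% in each state for H3K4me3. At an unadjusted p under 0.05, limma gave 228 of 14411 H3K27ac promoters in HSC, 903 in unstimulated BMDM and 646 in stimulated BMDM. The H3K4me3 counts were 356 of 12478 in HSC, 562 in unstimulated BMDM and 813 in stimulated BMDM. Of these counts only 903 and 813 exceeded 0.05 of the promoters tested, the share that the threshold gives with no difference. None of the members' regions was called either, against 0.0144%, 0.024% and 0% of all H3K27ac regions and 0% of H3K4me3 regions.

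The lowest adjusted p of any member was that of Soat1 H3K27ac in unstimulated BMDM. The 5 diabetic libraries scored 59.43 to 76.36 and the 6 control libraries 80.55 to 99.03. The groups did not overlap, but the share of all promoters for which that holds is not given here. The diabetic mean was 21.69 ± 8.04 lower and the adjusted p was 0.676, so no difference at Soat1 was shown. Lpl stood 15.33 ± 6.30 higher in diabetic unstimulated BMDM (adjusted p = 0.694), with overlapping groups. Leaving out the 3 libraries that went against their labels gave 10.78 for Lpl (adjusted p = 0.886) and −24.07 for Soat1 (adjusted p = 0.817). Scarb1 then moved from −12.40 to −21.01 (adjusted p = 0.764). For the 7 members tested, the median H3K27ac difference was 1.64 in HSC, −6.28 in unstimulated BMDM and −1.97 in stimulated BMDM. No test of a difference between effects (the cell type or stimulation effect in diabetic against control mice, or the disease effect in HSC against unstimulated BMDM) called a member for either mark.

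**Figure D4:**
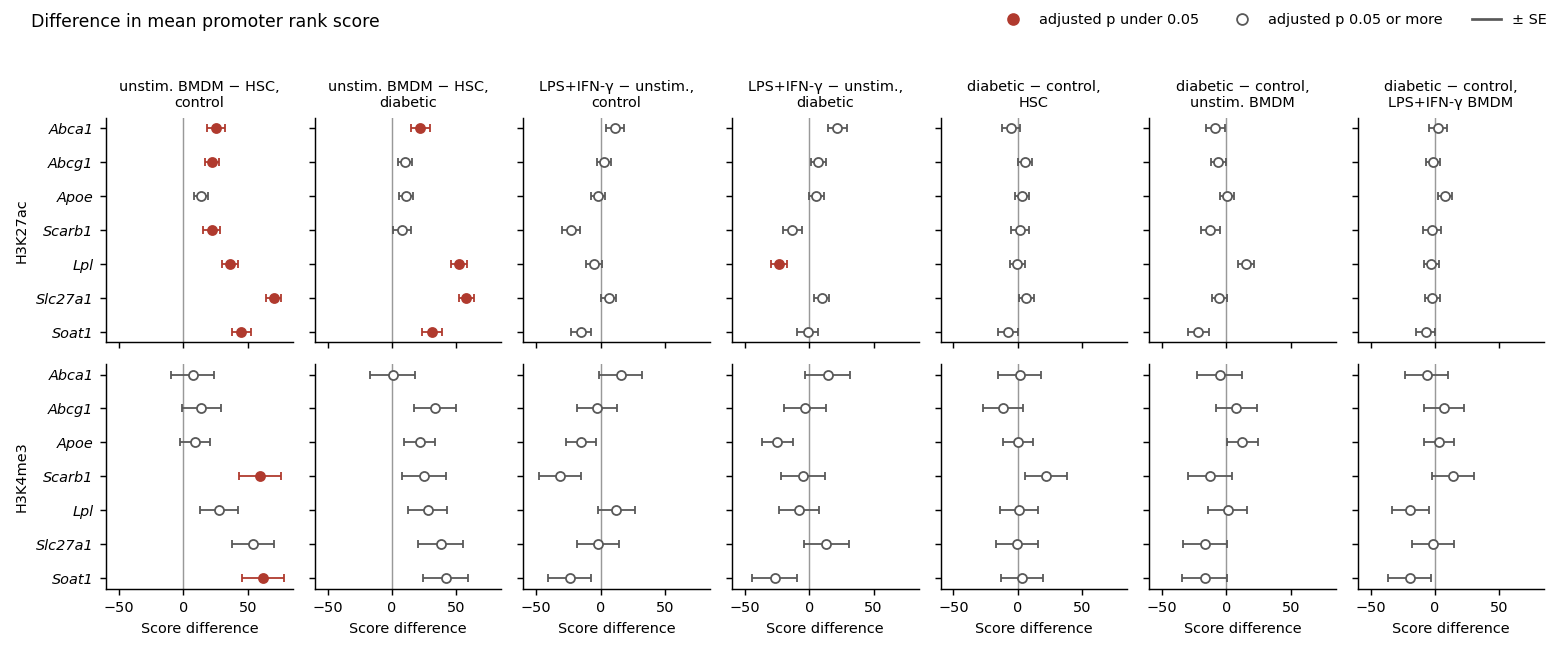
Difference in mean promoter rank score ± SE (score points) of the 7 tested genes in the 7 comparisons, H3K27ac above and H3K4me3 below, with filled points for an adjusted p under 0.05. Filled points lie in the BMDM minus HSC panels, plus Lpl after stimulation of diabetic cells, and none lies in the 3 diabetic minus control panels.

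A further 57 lipid handling genes, named for their place in the same pathways, were read beside the members, and 54 had an H3K27ac promoter tested. In unstimulated BMDM against HSC, 14 were higher and 2 lower in control mice and 12 higher and 2 lower in diabetic mice, with median differences of 8.78 and 4.10. Over all promoters 8.95% were higher and 8.48% lower in control mice and 9.44% and 8.13% in diabetic mice, and the small classes below are to be read against those shares. Among the other scavenger and lipoprotein receptors 4 of 11 were higher in control mice, led by Cxcl16, which also binds oxidized lipoprotein (62.59 ± 6.90, adjusted p = 4.83e-09), and Lrp1, an endocytic receptor (56.55 ± 8.42, adjusted p = 2.7e-06). Vldlr, the very-low-density lipoprotein receptor, was lower for H3K27ac (−7.97 ± 2.82, adjusted p = 0.0429) and for H3K4me3 (−50.97 ± 12.17, adjusted p = 0.0239). The latter was the 1 call among 45 H3K4me3 promoters tested, against 0.938% of all promoters lower (1.59% in all). That count is too small to be told from those shares, and its value without the 4 libraries of unclear scaling is not given here.

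Of the lipid-sensing regulators 2 of 12 were higher in control mice, with Pparg, the fatty acid sensing nuclear receptor, first at 68.03 ± 6.67 (adjusted p = 5.04e-10). Of the other efflux transporters and apolipoproteins 2 of 7 were higher, among them Pltp, the phospholipid transfer protein (43.96 ± 5.86, adjusted p = 3.44e-07), and 1 was lower, Abcg2, a drug efflux pump known from stem cells (−30.71 ± 7.15, adjusted p = 0.0017). In diabetic mice Cxcl16, Pparg, Lrp1 and Pltp again had the lowest adjusted p among the higher genes, at differences of 67.36, 54.15, 60.02 and 41.18, and Abcg2 and Vldlr were the lower ones (−39.24 and −8.64). Fatty acid binding, activation and storage genes gave 3 of 13 higher in control and 2 of 13 in diabetic mice, and lipid droplet, ester hydrolysis and lysosomal export genes 3 of 11 in each. After stimulation of diabetic cells 1 gene of 54 was called in each direction, against 1.33% of promoters higher and 2.03% lower. Both counts are near those shares, so they are not a result about the list. Ppard was higher (19.23 ± 5.67, adjusted p = 0.0474) and Cyp27a1, which makes an oxysterol, lower (−32.19 ± 8.36, adjusted p = 0.0253). No gene of the list was called between diabetic and control cells in any state.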

How the data were processed

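Per the labels and the submitters' processing notes, single reads of 50 bp were handled with Trim Galore 0.3.3, cutadapt 1.8, FastQC 0.11.3, Bowtie2 2.2.6, Picard 2.18.14 and 2.19.2, bedtools 2.19.1 and MACS2 2.2.7.1, with builds named GRCm38 and mm10. Of 106 samples, 70 have a peak list and 36 input samples have none used here. Each deposited list gives, per peak, the fold enrichment (a ratio at the summit) and the −log10 p and −log10 q that the authors' peak caller assigned within that library, together with a score made from q. The lowest −log10 q was 1.30104. No peak ran past a GRCm38 chromosome end.

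Summits of 1 interval were joined, keeping the highest −log10 p, giving 7828714 peaks. Promoters reached 1000 bp either side of 93513 starts of 21938 protein-coding genes (GENCODE release M21). Consensus regions were the 20000 strongest peaks of each library, merged and found in at least 2 libraries, which gave 44612 H3K27ac and 44636 H3K4me3 regions, and a member's locus was the gene with 20 kb flanks. Region scores stop at the 23627 (H3K27ac) and 11045 (H3K4me3) strongest. Scores were compared with limma 3.58.1 (trend, robust, R 4.3.3, statmod 1.5.0) over all 6 groups of a mark, and the scripts were tested on simulated data. Libraries of a group are separate samples in the labels, which do not tie them to single animals, so p-values measure the spread between these samples.

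The members, gene lists and doubted libraries were chosen with earlier results of these data known. All 10 members are named throughout, of the other lipid genes up to 4 per direction with the lowest adjusted p, and of the regions the called one with the lowest adjusted p per member and comparison. Promoter sequences are RefSeq's for GRCm38.p6. Same-numbered libraries were not treated as pairs (0 of 14 comparisons had every pair's correlation over 0.1). That check cannot show that they come from different animals, and single pairs correlated at up to 0.45. Other called regions over the members are counted but not named, and 1 of them is not reported here.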

Additional observations from a re-analysis of the deposited data

Results flagged for a closer look

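Dixon's test asks whether the highest or lowest score of a group lies unusually far from the next one, measured against the spread of the whole group, with a limit of 0.71 in groups of 5 and 0.625 in groups of 6. It picked 10 of 85 groups tested, over 7 genes, where chance alone picks about 1 in 20, and a group with a single non-zero score always passes. All but 1 concern H3K4me3.

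Diabetic HSC replicate 3 was far above its group for 3 genes: Soat1 at 88.29 (the others 0 to 29.22), Apoe at 52.29 (0 to 6.94) and Lpl at 8.27 (all others 0). In the same group replicate 2 scored 23.74 for Abcg1 (others 0 to 3.58) and replicate 6 scored 27.54 for Slc27a1 (others 0 to 4.66). In control HSC, replicate 1 scored 34.45 for Slc27a1 and replicate 4 scored 2.49 for Lpl, with 0 in all other libraries of the group in each case.

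In stimulated BMDM, diabetic replicate 4 scored 0 for Scarb1 where the other 5 scored 61.24 to 85.17. Control replicate 6 scored 69.17 for Abcg1 against 11.83 to 25.71 in the others, and it is one of the 4 libraries of unclear scaling. The single H3K27ac case was Cd36 in unstimulated control BMDM replicate 5, at 7.14 with 0 in the others, which is the only Cd36 promoter peak in 70 libraries and comes from a library that went against its label.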

How the results depend on the processing

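No called value reversed under any alternative, while some differences that were not called changed sign, among them Slc27a1 H3K4me3 after stimulation of diabetic cells (13.39, and −1.59 without the 4 libraries of unclear scaling). For single called genes and regions, 145 refits under another setting kept the call and 35 lost it, while 247 refits that left out 1 library kept it and 77 lost it. Slc27a1 and Lpl in the H3K27ac cell type comparisons kept theirs under all 10 settings. Without read totals, depth is unknown and limits every absent peak.

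The 6 H3K27ac calls in control BMDM against HSC became 3 when ranked by fold enrichment, and the 4 in diabetic mice became 2 by fold and 2 on a normal score. The 2 H3K4me3 calls in control mice became 0 by exact permutation, 0 with only the 2 groups compared, 0 by fold, 0 without the 4 libraries of unclear scaling, 1 without a filter and 1 with a replicate block. The 1 H3K27ac call after stimulation of diabetic cells became 0 with all promoters ranked, by exact permutation, without a filter, on a normal score, with only the 2 groups compared, by fold and with a replicate block. The block moved no other count of members by over 1.5 times, but the labels do not say whether same-numbered libraries share an animal. The smallest exact p is 0.00216 for 6 against 6 or 5 libraries. Without the 3 libraries against their labels, stimulation called 1 member promoter and 1 region in control cells (0 before) and 2 regions in diabetic cells (1 before). The shares of all promoters and regions called without them are not given here, so these counts cannot be read against a background. Without the 4 of unclear scaling the 2 H3K4me3 regions became 0. The cause of these changes was not tested.

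Leaving out 1 library at a time gave 5 to 7 and 3 to 4 H3K27ac cell type calls in control and diabetic mice, 0 to 3 H3K4me3 calls in control mice and 0 to 1 H3K27ac stimulation calls in diabetic cells. For regions, a test added after seeing the data, it gave 7 to 13 and 3 to 8 for H3K27ac cell type, 0 to 3 for H3K4me3 cell type in control mice and 0 to 3 for H3K27ac stimulation in diabetic cells. All other counts of members stayed at 0. Each refit kept the cut below which a score is 0, also when the library that set it was left out, so these refits do not test the cut.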
